A study of Mus musculus with 12 samples.

Results

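A set of 9 genes that govern proteolysis at the cell surface and in the matrix was chosen by symbol from the count table of a renal ischemia study, and all 9 were found among its 23420 genes. They are the plasminogen activators Plat and Plau, the urokinase receptor Plaur, the tissue inhibitors of metalloproteinases Timp1, Timp2 and Timp3, the membrane-bound collagenase Mmp14, the secreted protease Adamts1 and the cell surface sheddase Adam8. RNA from 12 kidneys of young adult male C57BL/6J mice was sequenced, with 4 control kidneys given as nephrectomy kidneys in the study's methods and 8 kidneys collected 24 h after a renal ischemia of 20 min (the labels give these times for the controls too). Title and group field disagree for every ischemic kidney. The 4 kidneys called group A carry the word ANESTH in their titles and conscious in their group field, and the 4 kidneys called group B carry CONCIOUS in their titles and anesthesia in their group field, so that no direction can be given to anaesthesia. Per the study's methods, the clamp was positioned beforehand under ketamine and xylazine with buprenorphine, conscious mice received brief isoflurane to close and open it, and anaesthetised mice received ketamine and xylazine. Elsewhere the study speaks of sham surgery as the reference, so that whether the controls came from mice with a clamp is unclear. The methods also describe removal of the right kidney at clamp surgery. Whether the control kidneys were removed in this way from the same mice is not stated, so that kidneys may be paired across groups. Ischemia, clamp surgery and a possible loss of the other kidney cannot be told apart here, and the labels give no litter or cage.

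Plasmin, released from plasminogen by tissue-type (Plat) or urokinase-type (Plau) activator, degrades fibrin and matrix proteins, and the urokinase receptor holds Plau at the cell surface. Matrix metalloproteinases (MMP) and the related ADAM and ADAMTS proteases cut collagens, proteoglycans and membrane proteins, and the TIMPs block them by binding the catalytic site. Timp3 is retained in the matrix and also inhibits several ADAM and ADAMTS enzymes, whereas Timp2 both inhibits metalloproteinases and takes part with Mmp14 in the activation of pro-MMP2. In the kidney these genes are known from tubular, vascular, interstitial and inflammatory cells.

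After ischemia, Adamts1, Mmp14 and Plaur rose and Timp3 fell, in both ischemia groups. Adamts1 was 4.52-fold higher in group A and 5.79-fold higher in group B, Mmp14 2.20-fold and 2.26-fold higher, and Timp3 3.66-fold and 2.85-fold lower, as ratios of mean CPM (CPM, counts per 1 M counted reads of the kidney). Plaur had no count in any control kidney. Plat, Plau and Timp2 did not pass the test, and Timp1 and Adam8 had too few counts to be tested. Each difference was tested in edgeR (quasi-likelihood F-test, two-sided, on the 11664 genes that passed its low-count filter, Benjamini-Hochberg adjustment over all of them, threshold 0.05). The filter kept 7 of the 9 genes, and it kept Plaur only through its ischemic kidneys, as the controls had no count. At this threshold 4 of them changed in group A, where 22.3% of all genes tested changed (10.5% higher and 11.7% lower), and 4 in group B, against 22.8% of all genes (10.9% higher and 11.9% lower). In each group 3 were higher and 1 was lower. The medians over the 7 genes were 1.12 and 1.10 on the log2 scale, beside -0.02 in each comparison over all genes tested.

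The 3 genes that rose are shown with the 250 bases before their RefSeq start (GRCm38.p6, which is mm10), because they moved in one direction and a reader may want to see what their promoters hold. Capitals mark each match to 1 of 3 motifs, all searched on both strands: AP-1 (TGANTCA), the core of the hypoxia response element (ACGTG) and SP1 (GGGCGG).
Plaur, chr7:24462233-24462482, plus strand: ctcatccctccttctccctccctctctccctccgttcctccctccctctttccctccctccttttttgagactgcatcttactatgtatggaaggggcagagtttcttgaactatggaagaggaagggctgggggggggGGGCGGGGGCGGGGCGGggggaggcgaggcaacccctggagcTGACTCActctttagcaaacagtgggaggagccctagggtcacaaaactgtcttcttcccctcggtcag
Mmp14, chr14:54431348-54431597, plus strand: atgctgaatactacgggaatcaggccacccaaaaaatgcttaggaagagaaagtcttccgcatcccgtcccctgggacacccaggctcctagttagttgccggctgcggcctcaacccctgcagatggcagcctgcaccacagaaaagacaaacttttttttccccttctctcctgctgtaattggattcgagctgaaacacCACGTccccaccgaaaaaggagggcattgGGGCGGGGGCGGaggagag
Adamts1, chr16:85803114-85803363, minus strand: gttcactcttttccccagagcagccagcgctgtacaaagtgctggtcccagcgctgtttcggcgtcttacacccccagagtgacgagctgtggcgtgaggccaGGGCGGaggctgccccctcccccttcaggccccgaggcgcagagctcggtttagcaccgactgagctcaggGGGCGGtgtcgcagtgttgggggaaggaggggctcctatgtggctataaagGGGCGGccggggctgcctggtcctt
Plaur held the AP-1 match TGACTCA, which begins 69 bases before the start, and 3 SP1 matches, of which the last 2 share 1 base. In Mmp14 there were 1 hypoxia core and 2 SP1 matches, and in Adamts1 3 SP1 matches. Of the 32851 promoter windows of this length, 6.75% held the AP-1 motif, 16.6% the hypoxia core and 32.7% the SP1 motif. Promoters were found for 7 of the 9 genes (not for Plat and Plau), and all 7 held an SP1 match, Timp3 with 1 among them. A hypoxia core was also present in Timp1. Matches are a description of letters and were not tested as binding sites.

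The total count per kidney lay between 15367342 and 44793350, and 3 counts, taken as the detection floor, corresponded to 0.067 to 0.195 CPM. Without molecular identifiers, this floor covers no more than counting error. Proximal tubule markers (6 genes) summed to between 6533 and 7410 CPM in the controls, so that the labelled tissue was seen in its markers, and to between 411.6 and 1365 CPM in the ischemic kidneys. Injured tubule markers (Havcr1, Lcn2, Krt20, Vcam1 and Sox9) went from 3.62 to 9.78 CPM in the controls to between 146.7 and 215.9 CPM after ischemia. In whole kidney RNA, fewer cells of a type and less RNA per cell cannot be told apart.

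**Figure D1:**
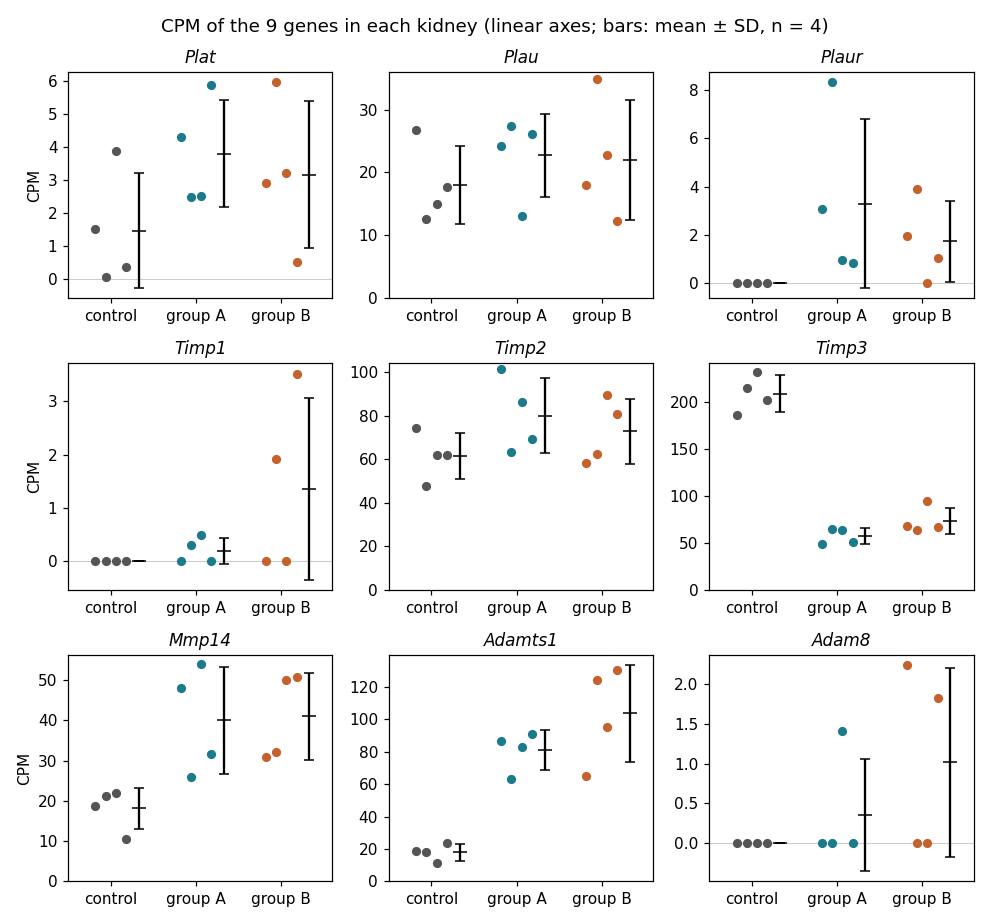
CPM of each of the 9 genes (one panel per gene, linear vertical axis) in the 4 kidneys of the control group, group A and group B, with points for kidneys and bars for the mean ± SD. Adamts1 and Mmp14 lie above and Timp3 below every control kidney in all 8 ischemic kidneys, whereas Timp1 and Adam8 have counts in only 4 and 3 of the 8.

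The plasminogen activators came first in the cascade, and neither passed the test. Plau (chr14:20836660-20843385 of mm10, plus strand) encodes urokinase, which the tubular epithelium is known to make. Its level was 26.7, 12.6, 15.04 and 17.6 CPM in control replicates 1 to 4, 24.3, 27.3, 13.0 and 26.2 CPM in group A, and 18.1, 34.8, 22.8 and 12.3 CPM in group B. The 3 groups overlap widely, and control replicate 1 stands at the level of the higher ischemic kidneys. The log2 fold change was 0.32 (standard error 0.35) in group A and 0.28 (0.35) in group B, with 95% intervals from -0.41 to 1.05 and from -0.45 to 1.01. edgeR's adjusted p was 0.636 and 0.67. Without control replicate 1 the value in group A was 0.56, and without group B replicate 2 that in group B was -0.067.

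Plat (chr8:22757727-22782844, plus strand) encodes tissue-type plasminogen activator, best known from endothelium. It was scarce, with 31, 2, 104 and 14 counts in the controls, 134, 57, 113 and 99 in group A and 87, 96, 65 and 8 in group B. In CPM the means were 1.45 ± 1.74 (SD, n = 4), 3.79 ± 1.63 and 3.15 ± 2.23. Control replicate 3, at 3.88 CPM, exceeded 2 of the group A kidneys, and group B replicate 4, at 0.521 CPM, fell among the controls. The log2 fold change of 1.36 (standard error 1.13) in group A had an adjusted p of 0.492, and that of 1.10 (1.12) in group B one of 0.589, in edgeR. With 1 kidney left out the log2 fold change ran from 0.96 to 2.57 in group A and from 0.55 to 2.31 in group B, highest in each without control replicate 3, and it passed in none of the alternatives. The lowest values came without control replicate 2 in group A and without group B replicate 2 in group B. Summed endothelial markers (8 genes) ranged from 106.2 to 158.8 CPM in the controls and from 77.7 to 146.8 CPM in the ischemic kidneys, with none of the 7 tested past the threshold.

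Plaur (chr7:24462484-24475968, plus strand) encodes the urokinase receptor, which is anchored in the membrane by a lipid and is known from leukocytes and injured epithelium. All 4 controls had 0 counts. Group A had 96, 192, 43 and 14 counts (3.07, 8.33, 0.96 and 0.833 CPM) and group B had 58, 63, 0 and 16 (1.94, 3.91, 0 and 1.04 CPM). Every kidney of group A lay above the controls, and 3 of the 4 kidneys of group B did, with replicate 3 at 0. Against the detection floor of 3 counts in each control kidney, the mean was at least 31.96-fold higher in group A and at least 16.7-fold higher in group B (edgeR adjusted p = 0.0054 and 0.0086). Plaur passed the low-count filter only through the ischemic kidneys in which it is high, so these p-values are not independent support for the rise. The SD was larger than the mean in group A, with 3.30 ± 3.51 CPM (SD, n = 4), and close to it in group B, with 1.72 ± 1.66. Without replicate 2 of each group, its highest kidney, the bounds were 15.7-fold in group A and 9.63-fold in group B. The macrophage marker sum (7 of 8 genes found) was 43.0 to 62.9 CPM in the controls and 8.12 to 26.6 CPM in the ischemic kidneys. Of the 4 tested, 1 (Csf1r) was lower and 0 were higher in each group, and their median log2 fold change was 0.27 in group A and 1.49 in group B, so that the sum and the median differ in direction. Csf1r had 848 to 2053 counts in the controls and 66 to 824 after ischemia, Cd68 had 0 to 43 and 0 to 137, and Cx3cr1 had no count in the controls or in group A. Lyz2 and C1qa had up to 36 and 23 counts in a control kidney, no count in group A and up to 29 and 15 counts in a kidney of group B. Itgam had 0 to 30 counts in the controls and 0 to 47 after ischemia, and C1qb had 0 to 29 and 0 to 36. The part of these cells in the rise of Plaur was not tested. Neutrophil markers (7 genes found) were at 0 in every control, with at most 2.73 CPM in sum in any ischemic kidney, and S100a8, Retnlg, Mpo and Elane had no count in any library.

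Among the inhibitors, Timp3 (chr10:86300372-86349506, plus strand) had the highest level per length in the controls and fell. The values were 186, 215, 232 and 202 CPM in the controls, 48.4, 65.3, 63.3 and 51.2 CPM in group A and 68.0, 64.1, 94.5 and 67.0 CPM in group B. No ischemic kidney overlapped the controls, where 28.5% of all genes tested had separate ranges between group A and control and 26.8% between group B and control. Its log2 fold change was -1.90 (standard error 0.17, edgeR adjusted p = 4.95e-08) in group A and -1.54 (0.16, edgeR adjusted p = 7.49e-07) in group B. The ischemia groups nearly separated from each other, as 3 of the 4 kidneys of group B exceeded every kidney of group A. Group B against group A gave 0.36 (0.16) with an unadjusted p of 0.0354 and an adjusted p of 0.962 in edgeR, and so was not past the threshold. The gene lies inside Syn3, which runs on the opposite strand, and 1733 exonic bases of the pair overlap. Syn3 had at most 147 counts in any kidney, against at least 861 for Timp3. Whether the counting used the strand is not given in the sources used here. Proximal tubule markers fell beside Timp3 in all 8 kidneys (6 of 6 past the threshold in each group), and so did the sum of thick ascending limb markers (4 genes), from 1744 to 1889 CPM in the controls to between 258.6 and 758.6 CPM, with 2 of 4 past the threshold in each group. Most of that sum was Slc12a1, with 31286 to 60398 counts in the controls and 2565 to 8539 after ischemia. Egf went from 4710 to 8126 counts to between 0 and 172. Umod did not follow, with 2471 to 4432 counts in the controls and 1519 to 5882 after ischemia, and Cldn16 had at most 73. The part of these cells in the fall of Timp3 was not tested.

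Timp2 (chr11:118301069-118355740, minus strand) moved little. Its level was 74.1, 47.8, 61.8 and 62.0 CPM in the controls, 101, 63.2, 86.2 and 69.0 CPM in group A and 58.2, 62.5, 89.4 and 80.9 CPM in group B. Only 2 kidneys in each group were above the highest control. With log2 fold changes of 0.36 (standard error 0.19, edgeR adjusted p = 0.226) and 0.22 (0.19, edgeR adjusted p = 0.515), the 95% intervals ran from -0.05 to 0.77 in group A and from -0.19 to 0.63 in group B. The fitted values of Mmp14, 1.12 and 1.15, are outside these intervals. Its own 95% intervals begin at 0.51 and 0.54 and so overlap those of Timp2, and the difference between the 2 genes was not tested.

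Timp1 (chrX:20870166-20874735, plus strand), the inhibitor known for its induction by inflammatory and repair signals, was near the limit of detection. There were 0 counts in all 4 controls, which allows a level of up to 0.077 to 0.147 CPM. Group A had 0, 7, 22 and 0 counts and group B had 0, 31, 0 and 54 counts. Of the 8 ischemic kidneys 4 had no count, and they included group B replicate 1 with 29905140 counts in all, while the highest level, 3.51 CPM, came from group B replicate 4 with the lowest total. Timp1 did not pass the low-count filter. Without that filter edgeR's adjusted p was 0.192 in group A and 0.0832 in group B. The exact permutation test of CPM, two-sided, gave p = 0.429 for each ischemia group. Timp1 lies inside Syn1, on the opposite strand, with no exonic base shared in the GENCODE M21 annotation. Syn1 had 0 to 41 counts in the controls, 113 to 380 in group A and 32 to 306 in group B, and its part in the counts of Timp1 was not tested.

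Of the proteases, Adamts1 (chr16:85793827-85803113, minus strand) changed most among the genes with counts in every kidney. It encodes a secreted enzyme that cuts aggrecan and versican. It was at 18.6, 17.95, 11.3 and 23.8 CPM in the controls, 86.8, 63.3, 83.1 and 90.8 CPM in group A and 65.0, 124, 95.4 and 130 CPM in group B. The lowest ischemic kidney, group A replicate 2 at 63.3 CPM, was well above the highest control. The log2 fold change was 2.15 (standard error 0.24, edgeR adjusted p = 1.59e-06) in group A and 2.51 (0.25, edgeR adjusted p = 2.90e-07) in group B. Although 3 of the 4 kidneys of group B exceeded every kidney of group A, the difference of 0.35 (0.23) between the groups did not pass, with an interval from -0.14 to 0.84 (here, 0.00857% of all genes tested passed).

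Mmp14 (chr14:54431612-54445364, plus strand), also called MT1-MMP, is a collagenase held in the cell membrane. The controls had 18.8, 21.1, 21.98 and 10.6 CPM. Group A had 48.1, 25.9, 54.1 and 31.8 CPM and group B had 31.0, 32.2, 50.1 and 50.8 CPM. Both groups lay above every control but spread within themselves, each with 2 kidneys near 30 and 2 near 50 CPM. The log2 fold changes were 1.12 (standard error 0.29, edgeR adjusted p = 0.0075) and 1.15 (0.29, edgeR adjusted p = 0.0061). Between the groups it differed by 0.03 (0.28), with an interval from -0.57 to 0.63. The sum of fibroblast and pericyte markers (8 genes) moved beside Mmp14 and Adamts1, from 612.7 to 859.0 CPM in the controls to between 1437 and 3955 CPM in the ischemic kidneys. Of the 7 tested, 4 were higher in each group, and Dcn had no count in group B. The podocyte marker sum (5 genes) was also higher, at 157.4 to 196.7 CPM in the controls and 196.8 to 371 CPM in the ischemic kidneys, with 3 of 5 past the threshold in each group. The part of these cells in either rise was not tested.

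Adam8 (chr7:139978932-139992562, minus strand) encodes a metalloproteinase-disintegrin known from myeloid cells. It had no count in any control and was found in 3 ischemic kidneys, with 63 counts in group A replicate 3, 67 in group B replicate 1 and 28 in group B replicate 4. The other 5 ischemic kidneys had 0 counts. It was not tested after the low-count filter, and without the filter edgeR's adjusted p was 0.177 in group A and 0.114 in group B. The 3 kidneys with Adam8 counts were also the only ones with a count of a neutrophil marker, at 0.982, 0.602 and 2.73 CPM in sum. That overlap was seen in the values and rests on few counts, and it was not tested.

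**Figure D2:**
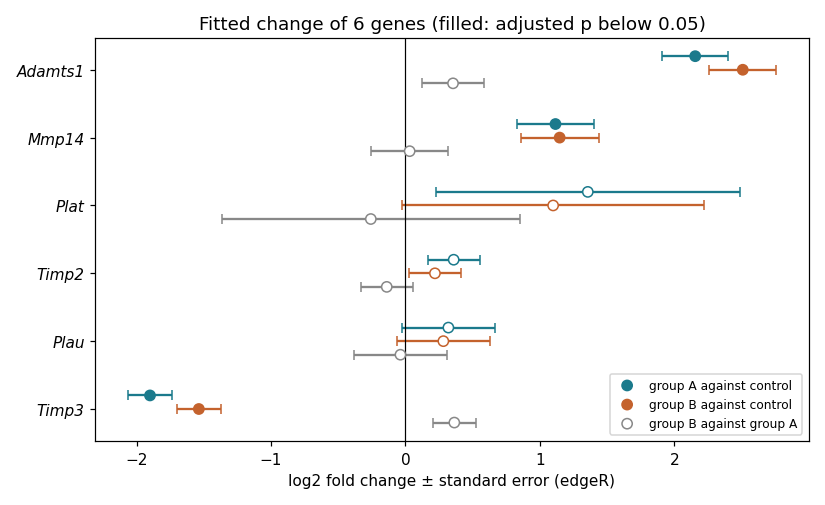
Log2 fold change (horizontal axis, edgeR, with bars of 1 standard error) of 6 genes in group A against control, group B against control and group B against group A, filled where the adjusted p is below 0.05. Plaur is not drawn because its fitted value depends on a control group at 0, and no symbol is filled for group B against group A.

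Between the ischemia groups, none of the 7 genes tested passed in edgeR's quasi-likelihood test, in a comparison where 0.00857% of all genes tested did, and 1 of them, Timp3, had an unadjusted p below 0.05, as 5.03% of all genes tested did. The ranges of the groups overlapped for all 9 genes, and 2.64% of all genes tested had separate ranges. DESeq2 and limma-trend also called 0 of the 7. The difference in Plaur was -0.91 on the log2 scale (standard error 1.55) and that in Plat -0.26 (1.11), with wide intervals from -4.20 to 2.39 and from -2.58 to 2.07. The interval of Timp3, not adjusted for the number of genes, ran from 0.03 to 0.70. That of Plau ran from -0.76 to 0.69 and that of Timp2 from -0.55 to 0.27, and Timp1 and Adam8 have none. A gene that did not pass is not thereby shown to be equal between the groups. Exact permutation tests of CPM were run for all 9 genes in the 3 comparisons. Of these 27 tests, 7 reached 0.0286, the smallest p that 4 kidneys against 4 allow (Timp3, Mmp14 and Adamts1 against control in each group, and Plaur in group A), and the Benjamini-Hochberg adjusted p over the 27 was then 0.11. Reaching it is the same as having separate ranges, which 28.5% of all genes tested had between group A and control and 26.8% between group B and control.

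The order of the levels changed when each was divided by the annotated exon length of its gene. In the controls Timp3 was highest with 25.6 ± 2.38 CPM per kb (SD, n = 4), followed by Timp2 with 15.8 ± 2.76, Plau with 7.61 ± 2.599, Adamts1 with 3.38 ± 0.963, Mmp14 with 3.04 ± 0.871 and Plat with 0.233 ± 0.279. Adamts1 and Mmp14 did not differ beyond their spread. In group A the order by CPM per kb was Timp2 (20.5 ± 4.43), Adamts1 (15.3 ± 2.30), Plau (9.59 ± 2.78), Timp3 (7.01 ± 1.04) and Mmp14 (6.71 ± 2.23). In group B it was Adamts1 (19.6 ± 5.64), Timp2 (18.7 ± 3.81), Plau (9.30 ± 4.04), Timp3 (9.01 ± 1.74) and Mmp14 (6.88 ± 1.82), and the kidneys' ranges overlapped between the first 2 and among the last 3. Plaur, Plat, Timp1 and Adam8 stayed below 1.6 CPM per kb on average in every group.

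**Figure D3:**
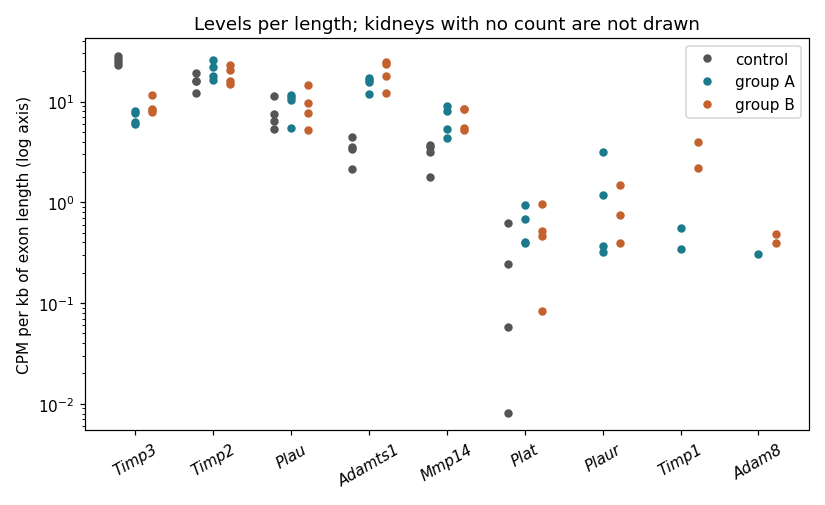
CPM per kb of exon length (log vertical axis) of each gene in single kidneys, ordered by the control mean, with control, group A and group B side by side. Timp3 moves from the top of the controls to the level of Plau and Mmp14, Adamts1 moves up to the level of Timp2, and kidneys with no count are not drawn.

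Ratios within a kidney do not depend on library scaling. Timp3 over Timp2, as counts per kb, was 1.20, 2.15, 1.79 and 1.56 in the controls, 0.229, 0.494, 0.351 and 0.355 in group A, and 0.560, 0.491, 0.506 and 0.396 in group B. Every control had more Timp3 than Timp2 and every ischemic kidney had less. Adamts1 over Timp3, an enzyme and an inhibitor known to block it, went from 0.134 ± 0.0451 (SD, n = 4) in the controls to 2.25 ± 0.609 in group A and 2.24 ± 0.849 in group B. Mmp14 over Timp2 was 0.112 to 0.289 in the controls, 0.268 to 0.410 in group A and 0.337 to 0.410 in group B, so that group A overlapped the controls and group B did not. These ratios are of RNA and were given no test.

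**Figure D4:**
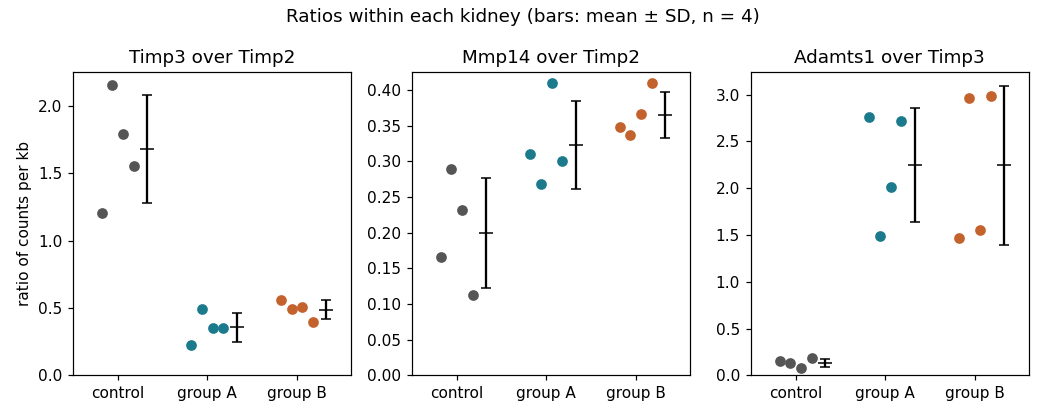
Ratios of counts per kb of exon length within each kidney (vertical axes start at 0) for Timp3 over Timp2, Mmp14 over Timp2 and Adamts1 over Timp3, with points for kidneys and bars for the mean ± SD. The controls and the ischemic kidneys do not overlap for Timp3 over Timp2 and for Adamts1 over Timp3.

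The other genes of these families were taken from lists of 66 genes, of which 37 were tested. In group A 7 were higher and 3 lower, and in group B 6 were higher and 4 lower, beside 22.3% and 22.8% of all genes tested that changed. Their median log2 fold change was 0.46 in group A and 0.31 in group B.

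In the rest of the plasminogen system (7 tested of 14), 4 genes were higher and 1 was lower in group A, and 3 were higher and 1 was lower in group B. Serpinf2, which encodes alpha-2-antiplasmin, fell from 115.3 ± 11.03 CPM (SD, n = 4) to 10.9 ± 2.05 in group A and 15.2 ± 9.01 in group B. Its log2 fold changes were -3.43 (standard error 0.42) and -2.95 (0.41), with edgeR adjusted p of 4.29e-06 and 2.13e-05. The plasminogen receptor pair Anxa2 and S100a10 rose, Anxa2 from 227.9 ± 68.0 CPM (SD, n = 4) to 2690 ± 290 and 2704 ± 575 (log2 fold changes 3.53 and 3.55, standard error 0.20 each) and S100a10 from 2.87 ± 1.17 to 12.9 ± 6.67 and 10.1 ± 6.86. S100a10 passed in both ischemia groups (edgeR adjusted p = 0.0094 and 0.0262), but in group B replicate 3, at 3.75 CPM, lay within the controls. The call in group B was lost in 6 of 20 alternatives, with limma-trend (limma adjusted p = 0.0552), with only the 2 groups compared (edgeR adjusted p = 0.0515), and without control replicate 2, 3 or 4 or group B replicate 2 (edgeR adjusted p = 0.0549 to 0.172). Lrp1, the endocytic receptor that clears activator and inhibitor complexes, passed in group A, at a log2 fold change of 0.63 (0.19, edgeR adjusted p = 0.0204), and not in group B, at 0.18 (0.19, edgeR adjusted p = 0.605). The groups differed by -0.45 (0.19, group B minus group A, edgeR adjusted p = 0.941), which did not pass. In group A, without group A replicate 3, group A replicate 1 or control replicate 3 it did not pass (edgeR adjusted p = 0.104, 0.0622 and 0.0787). Plasminogen itself (Plg) had at most 23 counts in any kidney and was not tested.

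Of the other matrix metalloproteinases, 8 of 20 were tested and Mmp24 passed. Mmp24, a membrane-bound relative of Mmp14, had 0 counts in the controls, 129, 38, 101 and 115 in group A and 0, 17, 33 and 0 in group B. It was at least 36.0-fold above the control floor in group A and at least 6.50-fold in group B (edgeR adjusted p = 0.0087 and 0.0283). Like Plaur, it passed the low-count filter through ischemic kidneys alone. Without group B replicate 3 the bound in group B was 3.41-fold, and in group B the call was lost in 7 of 19 alternatives: limma-trend, the replicate block, and without control replicate 2, 3 or 4, group A replicate 4 or group B replicate 3 (adjusted p = 0.0536 to 0.254 in edgeR or limma). The gelatinases, like Plg, Timp4, Reck, Adam10 and Adam17, are named outside the rule for named genes and were chosen after their values were seen. Mmp9 had 0 counts in the controls and up to 85 in an ischemic kidney (edgeR adjusted p = 0.0766 in group A and 0.086 in group B), and Mmp2 gave log2 fold changes of -0.46 (standard error 0.81) and -0.43 (0.81). Timp4 and Reck, the remaining inhibitors, did not pass in either group.

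Among 8 ADAM genes tested of 12, Adam19 was higher in group B (log2 fold change 1.98, standard error 0.56, edgeR adjusted p = 0.014) and Adam22 lower in group A (-1.03, 0.32, edgeR adjusted p = 0.0258). Without control replicate 2 or group B replicate 3 the edgeR adjusted p of Adam19 was 0.0511 and 0.0789, and without control replicate 2 or 4 or group A replicate 3 or 4 that of Adam22 was 0.0637 to 0.0854. Neither passed in the other ischemia group, and the group B against group A differences were 0.75 (0.54) and 0.26 (0.32). Adam10 and Adam17, the main sheddases of the family, had values within 0.42 log2 units of the controls and did not pass. Of the ADAMTS genes, 12 of 18 were tested. Adamts4, an aggrecanase like Adamts1, rose from 0 to 21 counts in the controls to 246 to 340 in group A and 92 to 173 in group B, with log2 fold changes of 4.41 (standard error 0.87, edgeR adjusted p = 7.12e-04) and 3.74 (0.84, edgeR adjusted p = 0.0025). Adamts15 fell from a mean of 30 CPM (SD 7.05, n = 4) to 11.4 ± 5.69 in group A and 6.37 ± 2.28 in group B, with log2 fold changes of -1.43 (0.38) and -2.27 (0.39) and edgeR adjusted p of 0.0091 and 2.07e-04. Adamts2 passed in group A (1.86, 0.62, edgeR adjusted p = 0.0352) and Adamts5 in group B (-1.04, 0.34, edgeR adjusted p = 0.0347). The call of Adamts2 was lost in 9 of 20 alternatives (without the filter, with the replicate block, and without control replicate 2, 3 or 4, group A replicate 1, 3 or 4 or group B replicate 1), at an edgeR adjusted p of up to 0.179. That of Adamts5 was lost without control replicate 2, 3 or 4 or group B replicate 3 or 4, at up to 0.0858. Adamts16 had 0 counts in group B and 14, 0, 133 and 43 in the controls, and its call in group B (edgeR adjusted p = 0.0463) was lost in 12 of 18 alternatives, with 0.133 without control replicate 3.

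**Figure D5:**
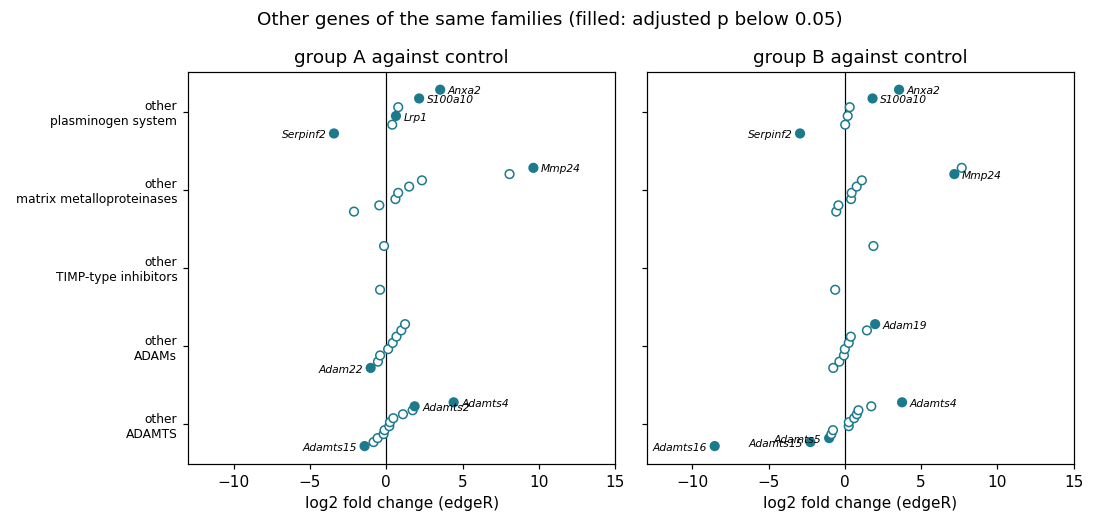
Log2 fold change (horizontal axis, edgeR) of tested genes of the same families, by list, in group A against control and in group B against control, filled and named where the adjusted p is below 0.05. Mmp24 and Adamts16 have a group at 0 counts, so that their position depends on the fit, and Anxa2, S100a10 and Adamts4 stand to the right in both panels.

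For each gene that passed the filter, the genes with the most similar log2 CPM over the 12 kidneys were listed, among genes whose log2 CPM averaged 1 or more. Timp3 ran with Nit1 (Pearson r = 0.988) and Fut9 (r = 0.98). Adamts1 ran with the calcium channel gene Itpr3 (r = 0.978) and the claudin gene Cldn7 (r = 0.976), and Mmp14 with the keratin gene Krt14 (r = 0.966) and the tropomyosin gene Tpm1 (r = 0.945). The nearest gene to Plaur was Nqo1 (r = 0.931) and then Eif3b (r = 0.912), to Timp2 Atf7 (r = 0.911) and St5 (r = 0.882), to Plat Zfc3h1 (r = 0.929) and Cnbp (r = 0.908), and to Plau Mrpl9 (r = 0.835) and Sugt1 (r = 0.833). The 12 kidneys share the split between control and ischemia, and these values are a description only.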

How the data were processed

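The authors extracted total RNA from 12 mouse kidneys, prepared stranded mRNA libraries, sequenced single reads, aligned the reads by STAR (genome mm10) and used HTSeq for gene counting. The deposited values are raw counts of 23420 genes. Versions, the annotation release and the strand setting of the counting are not given in the sources used here. Differences were fitted by edgeR 4.0.16 (R 4.3.3), whose default filter was applied (minimum count 10, minimum total 15), TMM factors scaled the libraries, and 1 quasi-likelihood fit with 3 group coefficients to all 12 kidneys gave the 3 comparisons. Standard errors are the fold change divided by the square root of F, and intervals use the t distribution with the test's degrees of freedom. CPM uses the counted totals, which lay between 15367342 and 44793350. The procedure was tested on simulated counts. Groups follow the sample titles. The 9 genes and the lists were chosen with earlier results of these data known. Named genes are all 9, and up to 5 of each family list with the smallest adjusted p among those past 0.05, and 7 further family genes were named after their values were seen. A gene of the family lists that enters their counts and medians is not reported here by name and is not drawn. Positions and exon lengths came from GENCODE M21, promoters from RefSeq. The p-values of edgeR set a difference between groups against the spread of kidneys within groups. In the main fit that spread was estimated over all 12 kidneys and shared in part between genes. Alternatives were RLE scaling, counted totals only, DESeq2 1.42.0, limma-trend (limma 3.58.1), no filter, a filter at 1 CPM in 4 or more kidneys, a block on the replicate number, a fit of the compared pair of groups alone, and each kidney left out. Python 3.11.15, SciPy 1.17.1 and matplotlib 3.10.9 were also used.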

Additional observations from a re-analysis of the deposited data

Results flagged for a closer look

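In a group of 4 kidneys, a kidney was singled out where its gap to the nearest other exceeded 0.829 of the group's range (Dixon's 95% critical value), which chance does in about 1 of 20 groups. Of the 24 groups of the 9 genes with any spread, 2 met this. Timp3 in group B replicate 3 was at 94.5 CPM (1914 counts), above the other kidneys of group B at 64.1 to 68.0 CPM. Adam8 in group A replicate 3 was at 1.41 CPM (63 counts), while the other kidneys of group A had 0 counts. With 3 kidneys at 0 this ratio is 1 whatever the value of the fourth, so that the chance rate does not apply to it.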

How the results depend on the processing

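Over 20 alternatives, Adamts1, Mmp14, Timp3 and Plaur kept their direction and stayed past the threshold against control in all 159 fits in which they were tested. The number of the 9 genes called stayed at 4 in group A and at 0 between the groups, and in group B it was 4, or 3 when only the 2 groups compared were fitted, because Plaur did not pass the filter there. Between the groups, the count of all genes called was 27 with DESeq2, 0 with limma-trend, 6 without a filter, 0 with only the 2 groups, and 0 to 7 with a kidney left out, beside 1. None of these calls was one of the 9 genes. Some values changed sign with a kidney left out, none of them past the threshold. Plau in group B against control ranged from -0.067 to 0.51 (below 0 without group B replicate 2). Between the groups Plat ranged from -0.79 to 0.10, Plau from -0.37 to 0.17, Plaur from -1.71 to 0.11 and Mmp14 from -0.13 to 0.19. Adamts16 in group A against control was 0.21 with the replicate block and ranged from -1.67 to 0.68 with a kidney left out. The cause was not tested. The other family genes lost a call in 48 of the 397 fits of comparisons in which they were called. With the replicate block, 4, 4 and 0 of the 9 genes and 2491, 2531 and 1 of all genes were called. The values showed no pairing by replicate number, as the deviations of same-numbered kidneys correlated between -0.055 and 0.045, and a kidney correlated best with its own number in 2 of 24 checks. Under the block the calls of Adamts2 in group A and of Mmp24 and Adamts16 in group B were lost. Plaur, Plat, Timp1 and Adam8 had at most 192 counts in a kidney and spread widely within groups.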
